A study of Mus musculus with 8 samples.

Results

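The neurons made from the mouse inner ear line iMOP carried 4599 peaks of CHD4 and 965 peaks of p300, and these 5564 regions, of the 26724 in the 6 peak lists of the series, were set against each other. Every peak of both lists was kept, and a CHD4 peak counted as one with p300 when it shared at least 1 bp with a p300 peak. The peaks came from CUT&Tag, in which an antibody guides a transposase that cuts and tags the DNA around the bound protein. iMOP cells are immortalized multipotent otic progenitors of wild-type genotype, labelled as given no treatment. The neurons were held in Neurobasal medium that contained K03861, an inhibitor of CDKs, at 1 µM, along with 1XN21 and L-glutamine. The proliferating iMOPs, used here only for comparison, were held in DMEM/F12 with 1XB27, carbenicillin and 20 ng/ml of bFGF. H3K4me3, a histone mark of active promoters, was profiled in both states as well. Each antibody had 1 library of 500000 cells per state, so no difference given here has a replicate check and no p-values were computed. All libraries stand for 1 cell line. Intervals on shares are exact 95% binomial ones (Clopper-Pearson) and reflect nothing but counting. The IgG libraries were not analysed here, and no background level stands beside the values.

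CHD4 is the ATPase of the NuRD complex, which moves nucleosomes and, through its histone deacetylases, removes acetyl groups from histones. p300 is an acetyltransferase that adds such groups and is widely used to map active enhancers. The enzymes thus act on histone acetylation in opposite directions, and both are known to be recruited to enhancers and promoters by transcription factors. The question addressed by the comparison is at which of its sites in neurons CHD4 is accompanied by p300.

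Read depth is unknown, because the lists give signal and no read counts, and a site missing from a list may lie below that list's lowest listed signal. The neuron label was checked through H3K4me3 at gene starts. The mark was listed at the start of 29.7% of all genes, at 4 of 12 neuronal genes (Tubb3, Map2, Elavl3 and Elavl4), at 1 of 9 genes of spiral ganglion neurons (Prox1) and at 2 of 7 otic progenitor genes (Sox2 and Nes). Neurod1, Neurog1 and Gata3, which mark the neuronal lineage of the inner ear, had none. None of 5 hair cell genes, 5 glial genes and 3 blood genes had it, and 2 of 4 mesenchyme genes did (Pou3f4 and Tbx18). In proliferating cells it was listed at 3 of the 12 neuronal genes and 4 of the 7 otic progenitor genes. The neuronal share is near that of all genes, so this check does not set the cells apart as neurons, and they are called neurons as labelled.

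At 16 genes the same 50-bp position held the highest signal of both a CHD4 peak and a p300 peak and lay within the promoter sequence, taken as the 250 bases before to 50 bases after the RefSeq start (GRCm38.p6, the coordinates of mm10). The 5 sequences that follow were chosen, after their values were seen, to show what this DNA is. They belong to Lrp8, a receptor for reelin; Ddit4, a stress-induced inhibitor of mTOR; Jun, a subunit of AP-1; Tubb4b, a tubulin; and Mbd3, the methyl-CpG-binding-domain subunit of NuRD itself. Capitals mark the shared position, and each sequence runs 5′ to 3′ on the strand of the gene.
Lrp8, chr4:107830703-107831002, plus strand: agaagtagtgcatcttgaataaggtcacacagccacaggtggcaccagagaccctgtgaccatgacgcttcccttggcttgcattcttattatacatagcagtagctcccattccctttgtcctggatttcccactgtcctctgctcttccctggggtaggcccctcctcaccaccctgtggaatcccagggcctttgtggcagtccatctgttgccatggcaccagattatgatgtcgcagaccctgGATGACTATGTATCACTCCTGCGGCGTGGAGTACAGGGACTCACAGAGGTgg
Ddit4, chr10:59951721-59952020, minus strand: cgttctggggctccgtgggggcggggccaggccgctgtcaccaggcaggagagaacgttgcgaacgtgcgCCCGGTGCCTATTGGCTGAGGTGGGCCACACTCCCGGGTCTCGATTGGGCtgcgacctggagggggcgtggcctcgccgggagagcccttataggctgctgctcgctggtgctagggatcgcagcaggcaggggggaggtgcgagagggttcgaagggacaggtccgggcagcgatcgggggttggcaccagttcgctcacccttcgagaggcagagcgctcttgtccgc
Jun, chr4:95052173-95052472, minus strand: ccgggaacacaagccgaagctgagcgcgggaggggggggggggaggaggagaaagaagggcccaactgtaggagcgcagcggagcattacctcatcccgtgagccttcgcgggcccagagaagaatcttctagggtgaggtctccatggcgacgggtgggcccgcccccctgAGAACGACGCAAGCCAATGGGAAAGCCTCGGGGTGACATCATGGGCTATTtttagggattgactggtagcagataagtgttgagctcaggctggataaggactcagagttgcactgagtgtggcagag
Tubb4b, chr2:25224653-25224952, minus strand: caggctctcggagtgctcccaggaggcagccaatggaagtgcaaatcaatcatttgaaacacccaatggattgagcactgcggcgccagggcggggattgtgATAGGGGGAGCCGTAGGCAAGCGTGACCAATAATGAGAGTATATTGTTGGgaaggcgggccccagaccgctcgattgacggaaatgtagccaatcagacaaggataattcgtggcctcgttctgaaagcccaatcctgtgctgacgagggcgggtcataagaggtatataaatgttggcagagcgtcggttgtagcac
Mbd3, chr10:80399482-80399781, minus strand: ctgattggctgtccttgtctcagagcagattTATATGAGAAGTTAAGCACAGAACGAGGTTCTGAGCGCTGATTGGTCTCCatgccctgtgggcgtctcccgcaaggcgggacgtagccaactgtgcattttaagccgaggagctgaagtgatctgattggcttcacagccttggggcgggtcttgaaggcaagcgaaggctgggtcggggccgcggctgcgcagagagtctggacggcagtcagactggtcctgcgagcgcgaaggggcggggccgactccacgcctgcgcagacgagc
For contrast, the promoter of Pou3f3, a neural transcription factor, held the highest CHD4 signal of a peak with no p300 listed, as did the promoters of 432 genes in all.
Pou3f3, chr1:42695518-42695817, plus strand: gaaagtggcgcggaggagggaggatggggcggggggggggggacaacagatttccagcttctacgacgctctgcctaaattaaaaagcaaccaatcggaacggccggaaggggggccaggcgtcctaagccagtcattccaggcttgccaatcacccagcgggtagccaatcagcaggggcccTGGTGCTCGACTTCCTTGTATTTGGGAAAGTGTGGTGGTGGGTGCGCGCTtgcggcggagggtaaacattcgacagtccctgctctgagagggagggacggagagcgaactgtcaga

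The CHD4 and p300 signals at these positions, in the authors' units, which cannot be compared between the lists, were 159.6 and 157 at Lrp8, 211 and 192 at Ddit4, 124 and 105 at Jun, 123 and 131 at Tubb4b and 137 and 156 at Mbd3, and the CHD4 signal at Pou3f3 was 57.3. By total signal of the peak, on a scale of percentiles from 0 for the weakest of a list to 100 for the strongest, CHD4 and p300 stood at 99.7 and 93.2 at Lrp8, 98.6 and 84.0 at Ddit4, 88.1 and 39.6 at Jun, 65.6 and 1.66 at Tubb4b and 65.3 and 15.2 at Mbd3. CHD4 stood at 90.4 at Pou3f3, above Jun, with no p300 listed. By highest signal the order turned round, with Pou3f3 at 25.1 in a peak of 16950 bp and Jun at 84.5 in one of 4850 bp. By total signal the 5 shared sites thus run over nearly the whole p300 list and the upper part of the CHD4 list.

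The shared positions did not keep to 1 place relative to the start. With the first base after the 250 upstream bases counted as 0, the position ran from -2 to 47 at Lrp8, from -78 to -29 at Jun, from -148 to -99 at Tubb4b, from -180 to -131 at Ddit4 and from -219 to -170 at Mbd3. The 5 positions held 54%, 54%, 48%, 68% and 46% G and C, in that order. H3K4me3 was listed over the CHD4 peak at Ddit4, Jun, Tubb4b and Mbd3 and not at Lrp8. The promoter of Lrp8 was also the poorest in CpG of the 5, with an observed over expected ratio of 0.185, against 0.761 at Ddit4, 0.594 at Jun, 0.773 at Tubb4b and 0.822 at Mbd3.

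Nearly all p300 peaks of neurons lay on CHD4. A p300 peak was listed at 918 of 4599 CHD4 peaks (20.0%, interval 18.8 to 21.1), and a CHD4 peak at 962 of 965 p300 peaks (99.7%, 99.1 to 99.9). The p300 list is much the shorter, which by itself holds the first share down: with the CHD4 list trimmed to its 965 strongest peaks by total signal, p300 was listed at 68.5% of CHD4 peaks and CHD4 at 73.3% of p300 peaks. The p300 peaks sat inside the CHD4 peaks more than the reverse: 787 of 965 (81.6%, 79.0 to 84.0) lay wholly within CHD4, and a p300 peak covered a median of 62.7% of the CHD4 peak it met. Over all peaks, 97.7% of the bases listed for p300 were also listed for CHD4, and 15.0% of the bases listed for CHD4 were also listed for p300. The CHD4 position of highest signal itself lay in the p300 peak for 907 of the 918 (98.8%, 97.9 to 99.4).

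p300 was listed mostly at the stronger CHD4 peaks. With the CHD4 list ranked by total signal and split into 10 equal parts, p300 was listed at 372 of 460 peaks in the strongest part (80.9%, 77.0 to 84.4), at 58.5% in the next and at 38.5% in the one after that. Further down the shares were 15.4% and 4.35%, and in the weaker 5 parts together 9 peaks had p300. Total signal grows with width, and a wide peak has more room to meet another. Ranked by the highest signal within the peak, which does not add up over width, the 3 strongest parts had p300 at 76.7%, 45.4% and 29.8% of peaks and the weakest at 0.436%. Among the 100 strongest CHD4 peaks, 87 had p300 by total signal and 81 by highest signal.

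**Figure D1:**
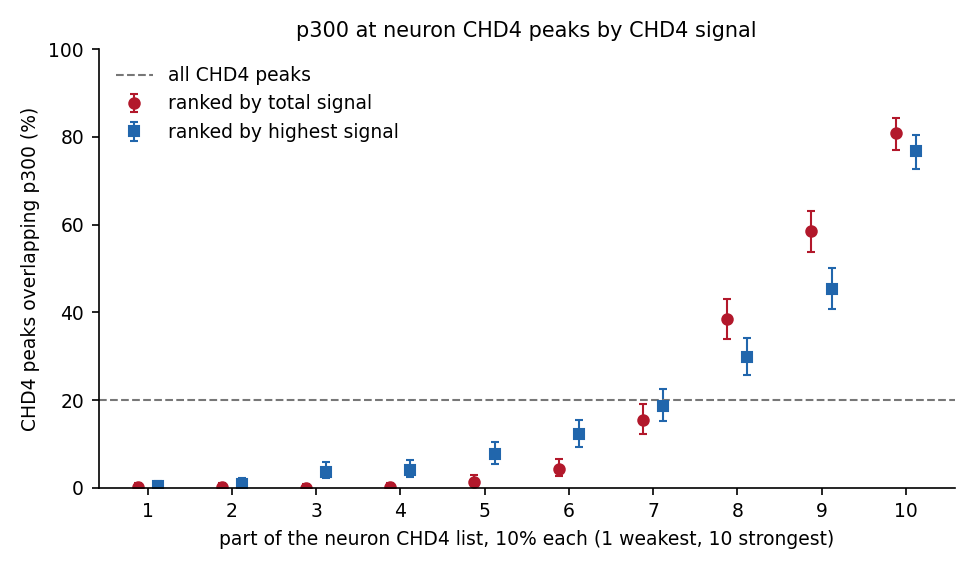
Share of neuron CHD4 peaks that overlap a p300 peak (%, y axis) in each of 10 equal parts of the CHD4 list (x axis, weakest to strongest), ranked by total signal (circles) or by highest signal (squares), with exact 95% intervals; the dashed line is the share over all CHD4 peaks, 20.0%. The share is 80.9% and 76.7% in the strongest part and under 1% in the weakest by either ranking.

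Among the strongest CHD4 peaks of the neurons were those near Tcf20, a transcriptional coregulator (chr15:82915101-82970550), and inside Gse1, a component of a histone demethylase and deacetylase complex (chr8:120333601-120385200), and each of these held 3 p300 peaks. The strongest p300 peak of all (chr5:118072401-118087550) lay in the CHD4 peak at Fbxw8, a substrate adaptor of a ubiquitin ligase, with the CHD4 peak at the 99.9th percentile and both highest positions at the same 50 bp. Other CHD4 peaks above the 99.7th percentile with p300 lay in Slit1, a repellent axon guidance ligand, at Inka2, an inhibitor of a PAK kinase, near Grin2c, an NMDA receptor subunit, and near Rybp, a Polycomb component. The Slit1 peak (chr19:41681301-41698050) met a p300 peak at the 99.6th percentile whose highest position was 400 bp away.

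A strong CHD4 peak did not always have p300. The strongest without it lay near Ccdc85c (chr12:108219501-108248750, 99.9th percentile), near Flrt1, an adhesion protein of neurons (chr19:7131351-7169550), and at Vps37b, an ESCRT subunit (chr5:123984701-124013750, 99.7th percentile). CHD4 peaks without p300 at the 99.2nd percentile lay 17880 bp from the start of Btg2, an antiproliferative gene, and 74600 bp from that of Gadd45g, a growth arrest gene. Of the 5 peaks just named, those at Ccdc85c, Flrt1, Vps37b and Gadd45g overlapped both CHD4 and p300 peaks of proliferating cells, and the one at Btg2 overlapped neither. At the other end of the list, the weakest CHD4 peaks with p300 were at Zfp236 (2.90th percentile) and at Fbxw8, next to the large domain (14.6th percentile). No other CHD4 peak with p300 lay below the 37.4th percentile.

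CHD4 peaks with p300 were higher, and within the same 20% of the list narrower, than those without. Their median width was 6750 bp (interval of the median 6400 to 7150) with p300 and 4900 bp (4800 to 5000) without. This order turned round within 20% parts of the list by total signal. Such parts do not match signal fully. Median total signal was 160870 with p300 and 132990 without in the strongest 20%, and 93286 and 83599 in the next. In the strongest 20% of the CHD4 list the medians were 8300 bp (7800 to 8700) for 641 peaks with p300 and 11250 bp (10550 to 12250) for 279 without, and in the next 20% they were 4675 bp (4350 to 5050) and 6300 bp (6050 to 6700). The highest signal went the other way, with medians of 136 (130 to 140.1) and 91.0 (86.2 to 97.2) in the strongest 20% and of 115 (109 to 119) and 82.2 (79.6 to 85.3) in the next, in the authors' signal unit. Within such a part, width and height are tied to each other through total signal and are not separate measures. The p300 peaks themselves had a median width of 4050 bp (3900 to 4200) and ran from 1200 to 22250 bp.

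CHD4 and p300 reached their highest signal at or close to the same place. For the 962 p300 peaks with CHD4 the median distance between the positions of highest signal was 0 bp. The position was the same 50 bp in 512 pairs (53.2%, 50.01 to 56.4), and it was no more than 200 bp apart in 813 (84.5%, 82.1 to 86.7). H3K4me3 peaks of the same cells gave a measure of how close unlike profiles came: 1238 H3K4me3 peaks that met CHD4 had a median distance of 500 bp to the CHD4 position, and 10.3% shared it (8.62 to 12.1). Between p300 and H3K4me3, 139 pairs had a median distance of 1350 bp, and 9.35% shared the position (5.07 to 15.5). In proliferating iMOPs the CHD4 and p300 positions were a median of 50 bp apart and the same in 41.9% of 2888 pairs (40.1 to 43.7). Among neuron pairs the share with 1 common position was 46.9% (41.3 to 52.5) in the 320 strongest p300 peaks, 57.9% (52.3 to 63.4) in the 321 in the middle and 54.8% (49.2 to 60.4) in the 321 weakest, and these intervals overlap.

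**Figure D2:**
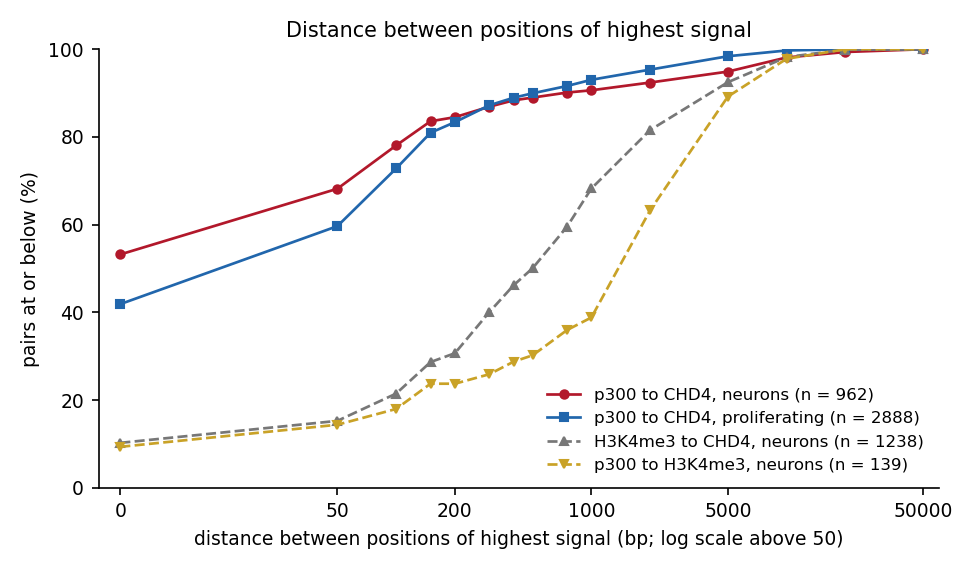
Cumulative share of overlapping peak pairs (%, y axis) whose positions of highest signal lie no further apart than the distance on the x axis (bp, log scale above 50), for p300 and CHD4 in neurons and in proliferating iMOPs (solid lines) and for H3K4me3 with CHD4 or p300 in neurons (dashed lines). The neuron p300 and CHD4 line starts at 53.2% at 0 bp, and both H3K4me3 lines start near 10%.

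The pairs that stood far apart were in wide CHD4 peaks. In 90 pairs the positions lay over 1 kb apart, and the CHD4 peak there had a median width of 16125 bp (12750 to 17750), against 6650 bp (6250 to 6950) in the other 872. CHD4 peaks of at least 10 kb gave 68 of 289 such pairs (23.5%, 18.8 to 28.9) and narrower ones 22 of 673 (3.27%, 2.06 to 4.91). Of the 918 CHD4 peaks with p300, 878 met 1 p300 peak, 34 met 2 and 6 met 3, with median CHD4 widths of 6550, 18575 and 46325 bp. Those with 3 p300 peaks included the peaks at Tcf20, Fbxw8 and Foxo6, a forkhead factor expressed in brain, and 2 inside Gse1. In the Gse1 domain of 51600 bp the distances were 225, 38750 and 47300 bp, the last being the largest of all pairs, and the p300 peaks lay at the 86.3rd, 92.2nd and 96.7th percentile. A Celsr2 peak (chr3:108390201-108429850), at a planar polarity cadherin, had a p300 peak 22200 bp from the CHD4 position, at the 6.43rd percentile.

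The ranks of CHD4 and p300 moved together. Across the 962 pairs Spearman's rho was 0.618 for total signal, 0.715 for highest signal, 0.619 for width and 0.570 for mean signal. Both libraries come from the same cells and are mapped to the same genome, pairs in 1 CHD4 peak share its value, and rho is given as a description with no p-value. In the 876 pairs where 1 CHD4 peak met 1 p300 peak it was 0.662 for total and 0.764 for highest signal, and in 2888 proliferating pairs 0.672 and 0.790. The 241 strongest p300 peaks of the pairs lay on CHD4 peaks at a median of the 96.1st percentile, none of them below the 76.0th. The 240 weakest lay at a median of the 77.4th, with a range from the 37.4th to the 99.9th, so a weak p300 peak could sit on a strong CHD4 peak. Slit1 shows both: its inner CHD4 peak at the 99.8th percentile met p300 at the 99.6th, and another (chr19:41610401-41620250) at the 80.8th met p300 at the 7.37th.

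**Figure D3:**
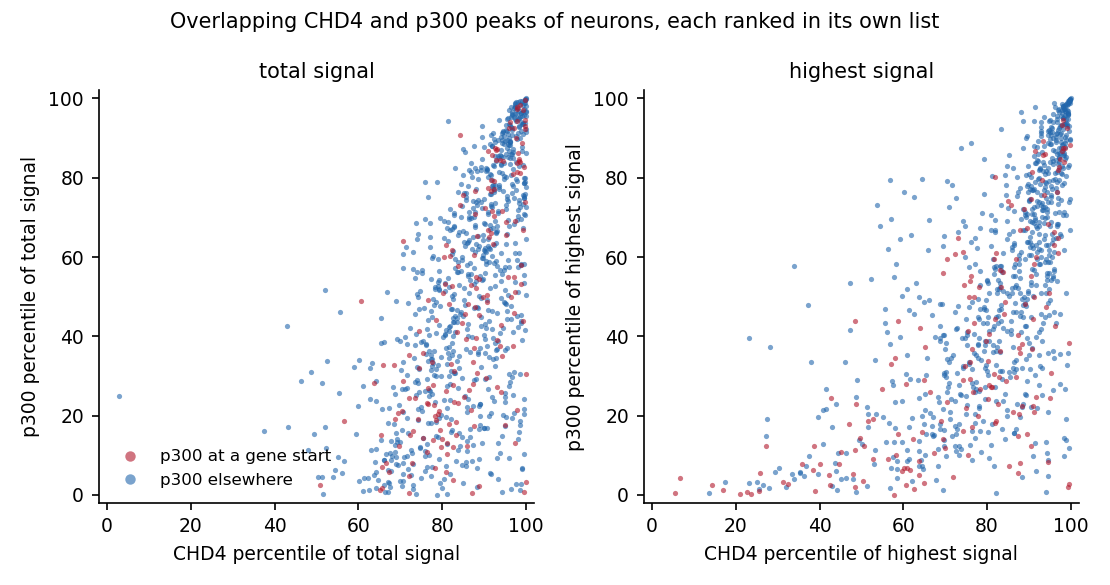
Percentile of the CHD4 peak (x axis) and of the p300 peak it overlaps (y axis), each within its own neuron list, by total signal (left) and by highest signal (right), for 962 pairs; red points are p300 peaks within 1 kb of a gene start and blue points the rest. The upper left is empty: none of the 241 strongest p300 peaks lies on a CHD4 peak below the 76.0th percentile of total signal.

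CHD4 peaks with p300 lay away from promoters more often than those without. H3K4me3 was listed at 26.8% of all neuron CHD4 peaks, at 148 of 918 with p300 (16.1%, 13.8 to 18.7) and at 1085 of 3681 without (29.5%, 28.01 to 31.0). Peaks within 1 kb of a gene start made up 23.6% (20.9 to 26.5) of those with p300 and 37.0% (35.4 to 38.6) of those without. Peaks elsewhere in a gene body made up 38.7% (35.5 to 41.9) and 31.9% (30.4 to 33.4), and peaks between genes 37.7% (34.5 to 40.9) and 31.1% (29.6 to 32.6). The CHD4 position of highest signal was within 1 kb of a start in 11.7% (9.65 to 13.9) and 27.4% (26.0 to 28.9). In the strongest 20% of the CHD4 list the H3K4me3 shares were 16.1% (13.3 to 19.1) with p300 and 32.3% (26.8 to 38.1) without, the start shares 25.4% (22.1 to 29.0) and 42.7% (36.8 to 48.7), and the shares between genes 36.3% (32.6 to 40.2) and 22.6% (17.8 to 27.9). Read the other way, in that 20% p300 was listed at 57.8% of CHD4 peaks at starts (51.8 to 63.6), at 71.6% of those in gene bodies (66.5 to 76.4) and at 78.7% of those between genes (73.6 to 83.2). Peaks without p300 were wider in that 20%, as given above, and a wide peak has more room to reach a start or H3K4me3. There the highest CHD4 position was within 1 kb of a start in 10.6% (8.33 to 13.3) with p300 and 17.2% (13.0 to 22.2) without. In the next 20% it was in 14.9% (10.7 to 20.0) and 20.7% (17.7 to 23.9), and both pairs of intervals overlap. H3K4me3 lay over that position in 12.9% (10.4 to 15.8) and 23.3% (18.5 to 28.7) in the strongest 20%.

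**Figure D4:**
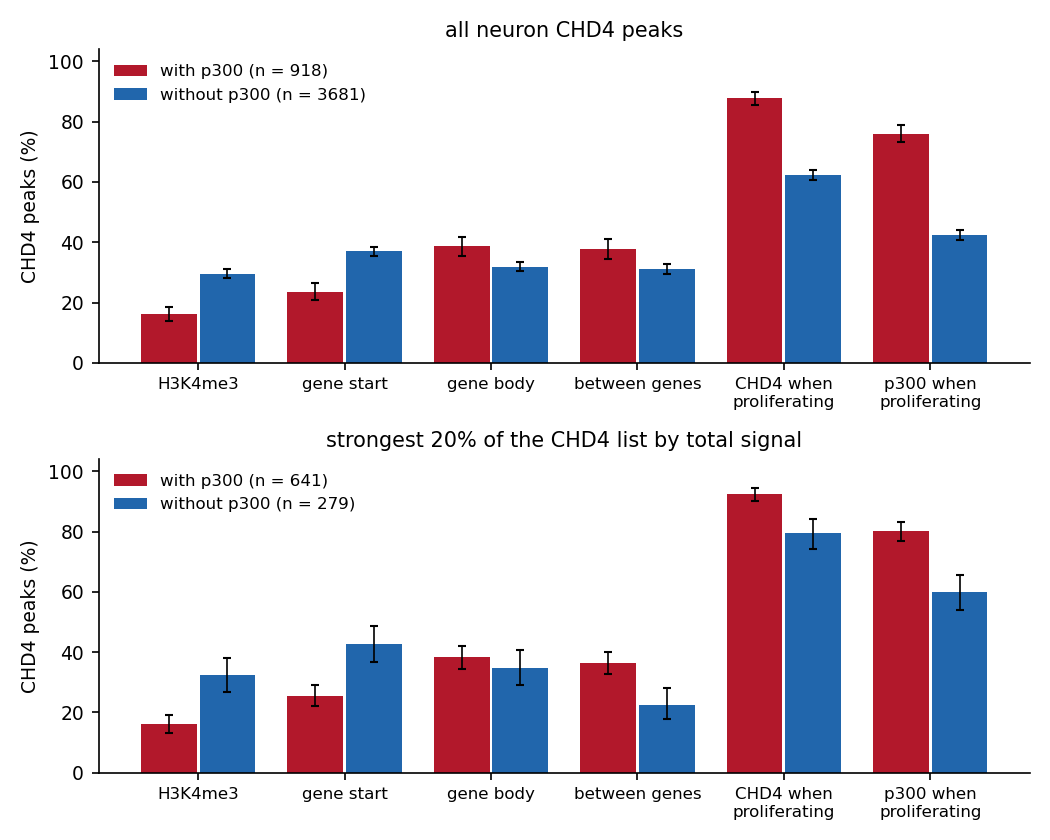
Share of neuron CHD4 peaks (%, y axis) that overlap H3K4me3, lie at a gene start, elsewhere in a gene body or between genes, or overlap a CHD4 or p300 peak of proliferating iMOPs, for peaks with p300 (red, left bar) and without (blue, right bar), over all peaks (top) and in the strongest 20% (bottom), with exact 95% intervals. The H3K4me3 bars are 16.1% and 29.5% over all peaks and 16.1% and 32.3% in the strongest 20%.

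CHD4 peaks with p300 in neurons were also found more often in the progenitor state, less so within the same 20% of the CHD4 list. Within such a part the peaks with p300 still had the higher median total signal, as given above. A proliferating CHD4 peak was listed at 805 of the 918 (87.7%, 85.4 to 89.7) and at 2295 of the 3681 without p300 (62.3%, 60.8 to 63.9). A proliferating p300 peak was listed at 76.0% (73.1 to 78.8) and at 42.4% (40.8 to 44.0). In the strongest 20% of the neuron CHD4 list the CHD4 shares were 92.4% (90.02 to 94.3) with p300 and 79.6% (74.4 to 84.1) without, and in the next 20% they were 79.4% (73.9 to 84.3) and 73.8% (70.3 to 77.1), with intervals that overlap. The p300 shares were 80.2% (76.9 to 83.2) and 59.9% (53.8 to 65.7) in the strongest 20%, and 69.4% (63.2 to 75.03) and 51.5% (47.6 to 55.3) in the next. At 1525 CHD4 peaks without p300 in neurons, proliferating cells had both proteins, and 731 of these (47.9%, 45.4 to 50.5) were in the stronger 50% of the neuron CHD4 list. The base for that share is itself below 50%, because all 3681 peaks without p300 had their median at the 40.1st percentile (38.8 to 41.4). The neuron p300 list is the shorter: with both proliferating lists cut to the neuron lengths, 20.8% of proliferating CHD4 peaks had p300 and 97.6% of p300 peaks had CHD4, close to the 20.0% and 99.7% in neurons. A p300 peak missing in neurons is therefore not given here as a loss. Neither protein was listed in proliferating cells at 112 of the 918 with p300 (12.2%, 10.2 to 14.5) and at 1351 of the 3681 without (36.7%, 35.1 to 38.3). The strongest peaks with p300 and without a proliferating CHD4 peak, on named chromosomes, lay near Parp16, an ADP-ribosyltransferase of the endoplasmic reticulum (chr9:65189751-65202850, 98.5th percentile), and Gm40363 (98.3rd), and at H2bc18, a histone gene (97.7th), and Btbd17 (97.2nd).

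At gene starts the pair was rare. CHD4 and p300 were both within 1 kb of the start of 216 of 21887 protein-coding genes (0.987%), CHD4 without p300 of 1679 (7.67%), and p300 without CHD4 of none. The strand-aware start was known for 17492 genes. For the other genes either annotated end was used, so that a start named here may be the gene's other end. A known start was held by 154 of the 216 and 1319 of the 1679. H3K4me3 was listed at the start of 29.7% of all genes, of 157 of the 216 with both proteins (72.7%, 66.2 to 78.5) and of 1251 of the 1679 with CHD4 and no p300 (74.5%, 72.4 to 76.6). At 56 of the 1679, the CHD4 peak at the start met a p300 peak further out. By the CHD4 peak at the start, the strongest genes with both included Fbxw8, Flrt1, Gse1, Inka2, Hes3, a repressor of the Hes family, Lrp8, Foxo6, Adgrg1, an adhesion receptor, and Spns3. At Flrt1 the strongest CHD4 peak had no p300, and p300 came with another CHD4 peak at one of its ends. The strongest with CHD4 and no p300 included Vps37b, Zbtb7b, a zinc finger factor of T-cell fate, Fam222a, Lfng, a glycosyltransferase that modifies Notch, Gper1, an estrogen-responsive receptor, Kif21b, a kinesin, and Ifi30, Mpv17l2 and Pik3r2, which share 1 CHD4 peak. Both rankings are by total signal. By highest signal these ran from the 38.7th percentile at Kif21b to the 96.5th at Vps37b. The genes named with both ran from the 76.5th at Gse1 to the 99.7th at Fbxw8.

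The promoter sequences of the classes were alike in base composition and had lower CpG ratios with p300 than without where H3K4me3 was not listed. Median G and C content was 62.2% for 204 starts with both proteins, 63.7% for 1658 with CHD4 and no p300 and 56.3% for all 21263 starts, and the CpG ratios were 0.731 (0.663 to 0.772), 0.759 (0.744 to 0.775) and 0.567. Without H3K4me3 the CpG ratio was 0.283 (0.236 to 0.432) for 53 starts with both proteins and 0.600 (0.537 to 0.637) for 398 with CHD4 and no p300. Lrp8, printed above, is one of the 53. Both strands were searched for 8 short motifs, none of which contains another. The E-box CACGTG was found in 8 of 204 promoters with both proteins (3.92%, 1.71 to 7.58), in 162 of 1658 with CHD4 and no p300 (9.77%, 8.38 to 11.3) and in 7.84% of all promoters. The GC box GGGCGG was found in 64.7%, 70.0% and 46.2%, CCAAT in 40.2%, 44.6% and 38.2%, and TATAAA in 9.80%, 7.12% and 12.6%. The shares were 12.7%, 10.3% and 14.6% for CAGATG, 20.1%, 22.1% and 24.5% for TGGGAA, 4.41%, 3.38% and 6.99% for TGANTCA and 2.45%, 2.65% and 2.23% for TGACGTCA. A match is a run of letters and not a bound site. Starts and not genes were counted: the 204 belong to 154 genes, the 1658 to 1330 and the 53 to 40. Promoters of 1 gene can share bases, as at Ube2d3, and the intervals treat them as separate.

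The genes named for the pathways of this tissue were taken from 24 lists with 453 genes found in the gene table. Of these, 12 had both proteins at the start (2.65%, against 0.987% of all genes) and 121 had CHD4 and no p300 (26.7%, against 7.67%). The 12 had CHD4 peaks at a median of the 90.7th percentile, from the 65.3rd to the 98.7th, and the 121 at a median of the 46.4th. Over all genes the medians were the 87.5th and the 39.0th. Among listed genes whose CHD4 peak was in the strongest 20% of the list, 9 of 29 had p300 at the start (31.0%), and among all genes 152 of 362 (42.0%).

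Axon guidance genes, to which the title of the study points, were read against 0.987% of all genes with both proteins at the start and 7.67% with CHD4 and no p300. Of 24 Slit, Robo and netrin genes, 2 had both (8.33%) and 3 had CHD4 and no p300. None of 14 Eph receptors, 8 ephrins, 20 semaphorins and 11 plexins and neuropilins had p300, and beside the share over all genes nothing particular to these lists is read from that. CHD4 was at 4, 5, 7 and 7 of them. At the Eph receptors the CHD4 peaks were of middling strength, at the 64.9th percentile for Ephb3, the 45.0th for Epha4, the 24.6th for Epha7 and the 23.0th for Ephb2. In the middle 20% of the CHD4 list, which holds Epha4, p300 was listed at 2.83% of all peaks. Among ephrins, the ligands of these receptors, CHD4 was strongest by total signal at Efna4, ahead of Efna3 (61.2nd), Efnb1 (38.6th), Efna5 (27.4th) and Efnb2 (1.37th). By highest signal Efnb2 came first, at the 32.2nd percentile, and Efna4 stood at the 27.5th. Sema4b (95.3rd) and Sema6a (85.0th), both transmembrane semaphorins, and the plexin gene Plxnb2 (85.4th) had strong CHD4 by total signal at the start without p300 there. By highest signal they stood at the 92.0th, 82.6th and 35.4th percentile, in that order. The guidance ligands with both were Slit1, whose end carried CHD4 at the 97.4th and p300 at the 51.2nd percentile with the same highest position, and Ntn3, a netrin, at the 79.9th and 14.1st, 50 bp apart. Draxin, a repellent that binds the netrin receptor DCC, had CHD4 at the 97.6th percentile at its start, and the p300 peak it met (79.8th) lay further out, with both highest positions 8323 bp from the start.

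The Notch pathway held 3 of the 12 genes with both proteins. At Dll1, a Notch ligand of nascent neurons, CHD4 and p300 stood at the 97.8th and 97.9th percentile (CHD4 peak chr17:15371401-15383600). Their highest position was the same and lay 4593 bp from the nearest start. At the receptor gene Notch1 CHD4 and p300 stood at the 92.3rd and 70.4th, 50 bp apart, with the CHD4 position 2847 bp from the nearest start. At Hes6, which promotes neuronal differentiation, they stood at the 90.9th and 77.5th, 100 bp apart. A further 10 of the 22 pathway genes had CHD4 and no p300 (45.5%, against 7.67% of all genes). They included Lfng (98.3rd), the effector Hes5 (86.1st), Rbpj, the DNA-binding partner of Notch (72.7th), and the ligand Jag2 (50.4th). By highest signal these stood at the 96.4th, 15.8th, 66.5th and 20.4th percentile, in that order. Of 34 proneural and neuronal transcription factors, 1 had both, Insm1 (CHD4 90.5th, p300 29.6th, same position), and 12 had CHD4 and no p300, among them Pou3f3 (90.4th) and Neurod2 (87.3rd). By highest CHD4 signal Insm1 stood at the 69.0th percentile, Pou3f3 at the 25.1st and Neurod2 at the 2.31st. Neurod1 and Neurog1 had neither protein at the start. Of 28 neuronal cytoskeleton and axon genes the tubulin genes Tubb3 (87.9th and 70.9th, 75 bp apart) and Tubb2b (79.1st and 21.3rd, same position) had both. Of 30 synapse and channel genes Cacng4, a calcium channel and AMPA receptor subunit, did (98.7th and 53.2nd, same position), while Hcn2, a pacemaker channel, had CHD4 at the 95.1st percentile and no p300. By highest signal the CHD4 peak of Cacng4 stood at the 88.3rd percentile and that of Hcn2 at the 31.1st.

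**Figure D5:**
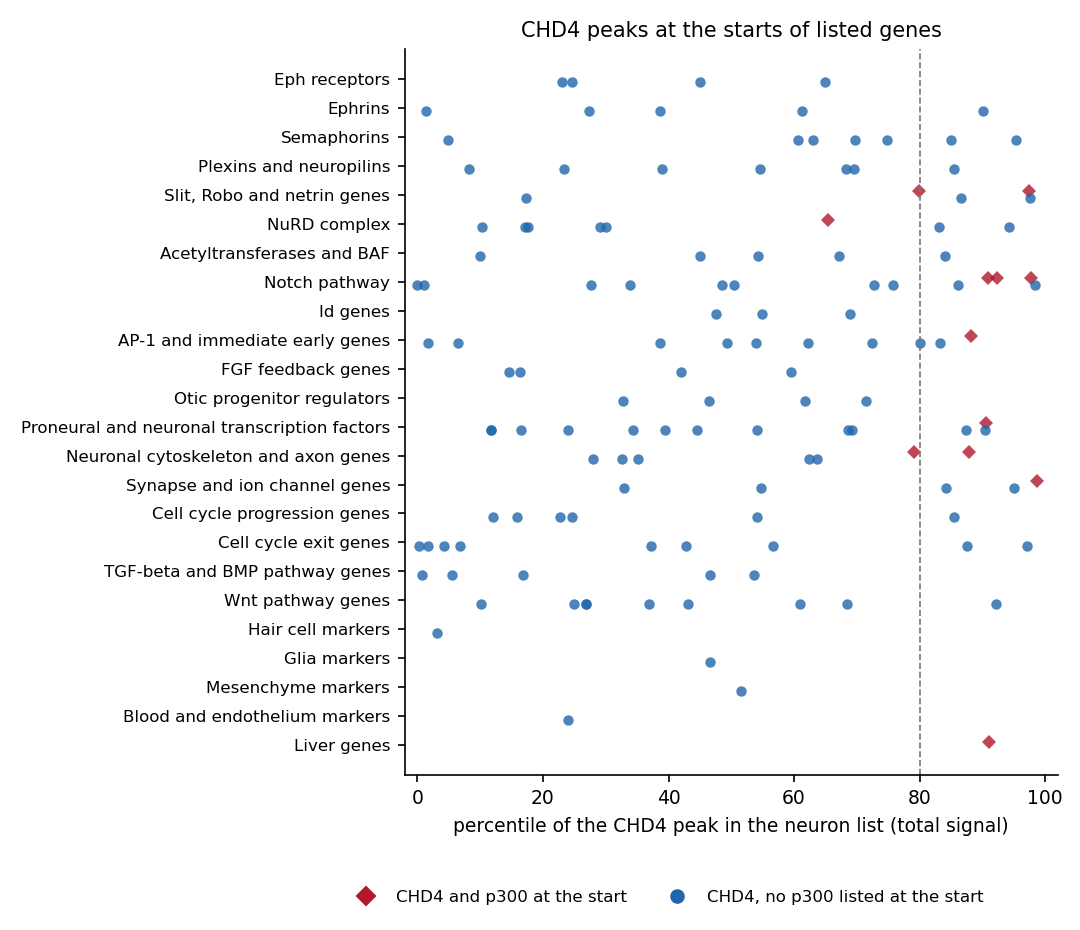
Percentile by total signal of the strongest CHD4 peak at the start of each listed gene with CHD4 (x axis), by gene list (y axis); red diamonds are genes with CHD4 and p300 at the start and blue circles genes with CHD4 and no p300 listed there. The dashed line is at 80, the lower edge of the strongest 20%; the 12 genes with p300 run from 65.3 to 98.7.

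Among regulators of chromatin, growth and division, the NuRD and AP-1 lists each held 1 gene with both proteins. Over all genes 0.987% had both at the start and 7.67% had CHD4 and no p300. Of 15 NuRD genes, Mbd3 had both (CHD4 65.3rd, p300 15.2nd, the shared position printed above) and 7 had CHD4 and no p300, including Chd4 itself (17.6th), Hdac2 (30.1st) and Cdk2ap1 (94.3rd). Ep300 had neither at its annotated ends. None of 18 acetyltransferase and BAF genes had p300 and 5 had CHD4. Of 20 AP-1 and immediate early genes Jun had both (88.1st and 39.6th, shared position printed above), and 9 had CHD4 and no p300, with Jund (83.2nd) and Junb (80.0th) the strongest by total signal. By highest signal Jund stood at the 82.8th percentile and Junb at the 17.6th. None of 30 cell cycle progression genes, 18 cell cycle exit genes, 25 TGF-beta and BMP genes, 30 Wnt genes, 13 FGF feedback genes, 24 otic progenitor genes or 4 Id genes had p300 at the start, where 0.987% of all genes had it with CHD4, so these counts of 0 do not set the lists apart. CHD4 was at 6, 9, 5, 9, 4, 4 and 3 of them. Sox2, the progenitor factor, was one of these (46.4th). Among marker genes of other cells, 1 of 15 hair cell genes, 1 of 15 glial genes, 1 of 12 mesenchyme genes and 1 of 12 blood and endothelium genes had CHD4 at the start, all without p300. These counts are near the 7.67% of all genes and do not set the lists apart.

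Away from starts, p300 was listed with CHD4 at further members of the same pathways, and some of the CHD4 peaks counted there also reached a start. CHD4 peaks whose highest position lay 1 to 50 kb from the nearest start numbered 2181, of which 533 had p300, with 468 nearest genes (2.14% of all genes), and 1648 had none, with 1366 nearest genes (6.24%). A further 275 with p300 and 1021 without lay more than 50 kb from any start. A distal peak with p300 was nearest to 76 of the 216 genes with both proteins at the start (35.2%, 28.8 to 42.0), to 121 of the 1679 with CHD4 and no p300 there (7.21%, 6.02 to 8.55) and to 271 of 19992 with neither (1.36%, 1.20 to 1.53). These shares are not independent of the start classes, because a single wide peak can count at both places. At Tubb3 the CHD4 peak covers the start and its highest position lies 1547 bp from it. Others counted at both places included 1 peak each at Dll1, Notch1, Mfng, Draxin, Slit1, Sema4b, Gadd45b, Myc, Fzd9 and Cacng4. Of the 453 listed genes, 29 had a distal peak with p300 (6.40%) and 91 a distal peak without (20.1%). Notch1 and Gse1 were among 9 genes with 3 distal peaks with p300. Lingo1, an inhibitor of axon growth, had 5 distal CHD4 peaks and none with p300.

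In guidance genes the distal peaks with p300 were at Plxnd1, a semaphorin receptor (chr6:115965801-115975850, 22830 bp from the start, CHD4 97.9th and p300 96.2nd percentile, 50 bp apart), Plxna2 (95.0th and 23.3rd), Sema4b (2 peaks), Slit1 (2) and Draxin. Neither an Eph receptor nor an ephrin had one, and 5 of these genes had a distal CHD4 peak without p300. In the Notch pathway Notch1 had 3, Notch2 1 (chr3:98022551-98028500, 95.2nd and 86.0th, same position), and Dll1 and Mfng, another Notch glycosyltransferase, 1 each. Sox2 had CHD4 and no p300 at its start and a distal peak with both 12280 bp away (chr3:34654701-34667750, 90.3rd and 43.2nd, same position). Among factors of neuronal differentiation, Sox11 (76.6th and 75.2nd, 14457 bp from the start), Sox4 (67.5th and 1.97th) and Insm1 (85.8th and 20.9th) had one, each with 1 common position. Cntn2, an axonal adhesion molecule (89.6th and 60.5th), had one that did not overlap p300 in proliferating cells, and the same held for those of Insm1, Fos (69.1st and 7.68th) and Myc (53.9th and 4.62nd) and for 1 of 2 at Fzd9, a Wnt receptor. Wnt7b (97.0th and 95.4th) and Ier5, an immediate early gene (98.4th and 74.3rd), had distal peaks with both proteins at 1 common position, and Gadd45b (97.1st and 68.4th), a growth arrest gene, had one with the positions 50 bp apart.

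Some microRNA genes lay in these peaks. Of 1005 hairpins of the RefSeq table, 63 (6.27%) overlapped a neuron CHD4 peak, 13 of them in a peak with p300 and 50 in one without, a share near the 20.0% of all CHD4 peaks with p300. The let-7c-2 and let-7b hairpins lay together in a CHD4 peak at the 94.5th percentile with p300 at the 91.5th (chr15:85698051-85714200), and their mature products, regulators of differentiation in many tissues, share the seed GAGGUAG. Mir26a-1 lay in a CHD4 peak with p300 (85.7th and 66.1st), and Mir26b, of the same seed, in one without (76.2nd), so that genes of 1 seed family fell on both sides. Capitals mark bases 2 to 8, the seed.
let-7c-5p: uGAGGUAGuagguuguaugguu
let-7b-5p: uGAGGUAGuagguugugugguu
miR-26a-5p: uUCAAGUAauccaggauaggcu
miR-26b-5p: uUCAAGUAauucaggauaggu
Among hairpins in CHD4 peaks without p300 were those of miR-9 (Mir9-3, 69.7th percentile), a microRNA of neural progenitors and neurons, and of the neighbours miR-132 and miR-212 (11.2nd), which respond to neuronal activity.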

How the data were processed

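The deposited peak lists give, for each region, 3 coordinates and 3 columns on signal (total, highest, and the position of the highest), and the signal values are the authors' own. Bowtie2, deepTools, SEACR and mm10 are named in the submitters' processing notes, with no versions or roles. The lists are called merged in the deposit; what was merged and how signal was scaled are not stated in the sources used here, and signals of different lists were compared only as ranks. Overlap meant at least 1 shared bp. Percentiles were taken within a list, by total signal unless highest signal is named. Gene starts came from RefSeq tables of GRCm38.p6 (17492 of 21887 protein-coding genes had a strand-aware start), and a gene had a protein at its start when a peak came within 1 kb. Each list stands for 1 library per group, so shares have exact 95% intervals, medians order-statistic intervals, and no test was run.

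Genes named were 8 fixed genes, the 10 strongest CHD4 starts with and without p300, p300 peaks without CHD4, the 5 widest distances, the 5 CHD4 peaks with most p300 peaks and up to 5 genes per list and class, some of which are not reported here; distal genes, promoters and microRNAs were picked once their values were known. The comparison and the gene lists were chosen with earlier results of these data known. Python 3.11.15, numpy 2.4.6, pandas 2.3.3, SciPy 1.17.1 and matplotlib 3.10.9 were used, and the overlap code was tested on simulated data. The alternatives varied the overlap, list trimming, position, window and chromosomes.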

Additional observations from a re-analysis of the deposited data

How the results depend on the processing

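Of 36 alternative values, 24 stayed within the limits set for an unchanged value and 12 moved. The limits differed between kinds of result, so the count of 24 is not a measure of stability. A change from 216 to 154 genes with both proteins counted as unchanged, and one from 6750 to 7600 bp in median width as moved. Trimming the CHD4 list to the length of the p300 list by total signal gave p300 at 68.5% of CHD4 peaks and CHD4 at 73.3% of p300 peaks. Taking the middle of each peak in place of its highest position gave a median distance of 725 bp. Keeping the stronger 50% of both lists by total signal gave median CHD4 widths of 7600 bp with p300 and 6350 bp without, H3K4me3 shares of 9.83% and 19.3%, and 85 genes with both proteins and 788 with CHD4 and no p300 at the start; fewer peaks enter there. Rank agreement was 0.662 for total and 0.764 for highest signal in pairs of 1 peak each, and 0.570 for mean signal. Counting only genes with a known start, a choice made after seeing the data, gave 154 and 1319 genes. No paired analysis was possible because each group is 1 library and no result comes from a test. With unknown depth, a site absent from the p300 list may still carry p300 below what was listed.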

Other observations

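Only 3 p300 peaks of neurons had no CHD4 peak. One lay in the body of Gmppa, nearest to Asic4, a proton-gated channel gene (chr1:75441301-75446900), at the 80.5th percentile of the p300 list and 30250 bp from the nearest CHD4 peak, and overlapped no p300 or CHD4 peak of proliferating cells. The others lay inside Gse1, before its large CHD4 domains (chr8:120272951-120280200 and chr8:120305301-120313400), at the 64.7th and 98.2nd percentile and 36500 and 8000 bp from CHD4, and both overlapped p300 and CHD4 peaks of proliferating cells.

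Of 6 neuron CHD4 peaks on contigs that are not placed on a chromosome, 3 had p300, at the 96.0th, 97.7th and 99.3rd percentile of the CHD4 list. The 3 without p300 stood at the 23.2nd, 26.1st and 53.6th. Contigs often hold repeats, and the treatment of reads with several matches is not stated in the sources used here.

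Highest signals were whole multiples of 1 step, to within 0.05 of a step, in both lists (0.229 for CHD4 and 0.390 for p300). The lowest total signal, divided by 50 bp and by the step, came to 3591 for CHD4 and 3542 for p300. On that scale the lists ended at nearly the same lower limit. The sources used here do not say what a step stands for.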
